A study of Mus musculus with 40 samples.

Results

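Interferons are secreted proteins that cells release on infection or immune attack, and 9 genes that carry their signal from the cell surface to the nucleus were followed here across 40 arrays of mouse melanoma. They are the interferon gamma receptor chains Ifngr1 and Ifngr2, the receptor-bound kinases Jak1 and Jak2, the transcription factors Stat2, Irf9, Irf1 and Irf8, and the inhibitor Socs1. The genes were chosen by name for their place in this pathway, with earlier results of these data known. A total of 15 probe sets named 1 of these genes and no other gene, out of 45037 probe sets fitted and 17097 genes named on the array. No probe set that named several genes held any of them. Ifngr1, Irf9, Irf1 and Socs1 had 1 probe set each, Jak1 had 3, and the other 4 genes had 2 each.

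Interferon gamma binds a receptor built of an IFNGR1 and an IFNGR2 chain, which carry JAK1 and JAK2, and signalling from this receptor acts on genes through a DNA element called GAS. Type I interferons act through another receptor with JAK1 and TYK2, and lead to a complex holding STAT2 and IRF9 that binds an element called ISRE. IRF1 is itself induced by this signalling and turns on antigen presentation genes, IRF8 is a factor of macrophages and dendritic cells that also responds to interferon gamma, and SOCS1 is induced as a feedback inhibitor that blocks the kinases. In melanoma the pathway is known for raising antigen presentation and PD-L1, the product of Cd274, on tumour cells.

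The study asked how drugs that act on chromatin alter a mouse melanoma and its surroundings. B16F10 is an established mouse melanoma line, and OTX015 (birabresib) blocks BET proteins, readers of acetylated histones, from binding chromatin. Guadecitabine is a prodrug of decitabine, an inhibitor of DNA methylation. The 6 groups were 4 untreated and 4 OTX015-treated samples of B16F10 in culture, 11 untreated and 10 OTX015-treated tumours of the OTX015 experiment, and 5 untreated and 6 guadecitabine-treated tumours of the guadecitabine experiment. All tumours grew from B16F10 placed under the skin of C57black6J mice aged 8 weeks, with OTX015 given by mouth and guadecitabine into the abdomen. All groups share the B16F10 line and no genetic change beyond it is labelled. The labels call the tumour samples tumour melanocyte cells and mention no sorting, so other cells of the tumour may be in the RNA. Samples are called cultures and tumours below. Dose, duration of treatment and sex are not labelled, and the labels do not say whether replicates were separate cultures or animals, so p-values measure the spread between these samples, which may be technical.

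Values are RMA values on the log2 scale, quantile-normalized over all 40 arrays because the deposited values of the OTX015-treated tumours lay lower throughout (array means of 4.34 to 4.38, against 4.54 to 4.64 for the other 30 arrays). The background level, the 95th percentile of 83 probe sets for olfactory or vomeronasal receptors, was 4.47. Tests were made with limma over all 45037 probe sets, and a probe set was called at a Benjamini-Hochberg adjusted p under 0.05. A gene is represented by its brightest probe set, judged by the mean over all arrays, unless another is named. By that mean, 6 of the 9 genes lay above background, and Stat2, Irf8 and Socs1 lay below it, where arrays understate changes. In 7 tumour arrays (2 controls and 3 treated tumours of the OTX015 experiment and 2 guadecitabine-treated tumours) the deposited values had a smaller spread than in the others, with an SD under 1.9.

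All 7 melanocyte markers lay above background in every group, with a list mean between 11.2 and 11.7 in each array, as the label of a melanoma line implies. In OTX015-treated cells Hexim1, a gene that BET inhibitors raise, was higher by 2.42 (SE 0.08, limma adjusted p = 3.42e-09) and Myc, which they lower, fell by 1.25 (SE 0.09, adjusted p = 8.99e-07). In OTX015-treated tumours Hexim1 differed by 0.12 (SE 0.08, adjusted p = 0.375) and Myc by -0.14 (SE 0.18, adjusted p = 0.666), so the tumour arrays gave no such check of the drug label.

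The starts of these genes were read for both elements, since some of the 9 genes are themselves known targets of the pathway. Windows from 250 bases before to 50 bases after each annotated start came from RefSeq on build GRCm38.p6, with 12 windows for the 9 genes. The letters searched were TTCNNNGAA for GAS, which reads the same on both strands, and GAAANNGAAA for ISRE, searched on both strands. Windows of 4 genes held a match. They are shown in gene direction, with the matches in capitals.
Irf1, chr11:53769764-53770063, plus strand: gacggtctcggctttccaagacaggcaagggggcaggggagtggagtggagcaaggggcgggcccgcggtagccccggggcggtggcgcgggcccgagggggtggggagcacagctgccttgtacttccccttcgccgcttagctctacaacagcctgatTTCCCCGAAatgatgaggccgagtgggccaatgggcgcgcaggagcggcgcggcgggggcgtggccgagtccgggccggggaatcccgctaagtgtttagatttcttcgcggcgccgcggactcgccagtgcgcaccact
Irf8, chr8:120736108-120736407, plus strand: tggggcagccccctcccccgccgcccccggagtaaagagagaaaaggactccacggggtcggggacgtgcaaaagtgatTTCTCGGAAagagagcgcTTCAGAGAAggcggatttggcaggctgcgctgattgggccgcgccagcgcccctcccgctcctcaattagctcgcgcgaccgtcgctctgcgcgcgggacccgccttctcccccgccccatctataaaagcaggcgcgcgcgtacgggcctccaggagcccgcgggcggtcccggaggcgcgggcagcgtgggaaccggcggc
Stat2, chr10:128270248-128270547, plus strand: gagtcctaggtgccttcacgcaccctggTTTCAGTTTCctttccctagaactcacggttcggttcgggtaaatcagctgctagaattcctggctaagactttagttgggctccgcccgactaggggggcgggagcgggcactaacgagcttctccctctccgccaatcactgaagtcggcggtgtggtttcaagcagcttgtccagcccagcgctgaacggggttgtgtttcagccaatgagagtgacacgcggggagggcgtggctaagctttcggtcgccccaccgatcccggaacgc
Socs1, chr16:10785487-10785786, minus strand: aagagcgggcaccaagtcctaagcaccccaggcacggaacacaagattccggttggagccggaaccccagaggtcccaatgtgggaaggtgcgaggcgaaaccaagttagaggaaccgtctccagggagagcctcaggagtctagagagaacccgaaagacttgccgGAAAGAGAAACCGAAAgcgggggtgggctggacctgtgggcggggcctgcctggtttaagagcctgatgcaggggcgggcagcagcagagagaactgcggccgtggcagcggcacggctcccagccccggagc

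Irf1 held the GAS match TTCCCCGAA, starting 90 bases before the gene's start. Irf8 held 2, TTCTCGGAA at 171 and TTCAGAGAA at 153 bases before its start. Stat2 held an ISRE match on the other strand, read here as TTTCAGTTTC, at 222 bases before its start. Socs1 held 2 ISRE matches that share bases, GAAAGAGAAA at 83 and GAAACCGAAA at 77 bases before its start. The second windows of Irf1 and Irf8, both windows of Irf9, and those of Ifngr1, Ifngr2, Jak1 and Jak2 held neither set of letters, which says only that the letters are not in these windows. Of all 32851 windows of the same length, 8.3% held the GAS letters and 3.44% the ISRE letters. A match is a description of sequence and not of binding.

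**Figure D1:**
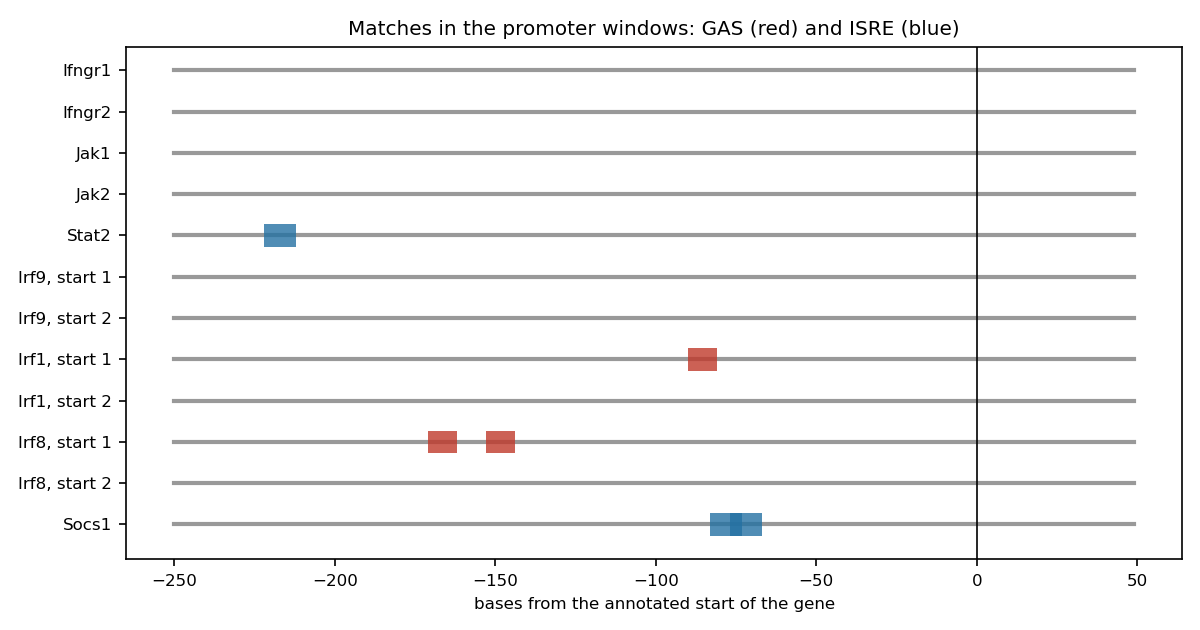
Positions of GAS matches (red) and ISRE matches (blue) in the 12 promoter windows of the 9 genes; the x axis is the distance in bases from the annotated start. Irf1 has 1 GAS match, Irf8 has 2, Stat2 has 1 ISRE match and Socs1 has 2 that overlap.

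OTX015 in cultured cells moved most of these genes, and not in 1 direction. Jak1 rose 2.34-fold and Irf9 fell 2.39-fold, the largest changes among the 9 genes, while the receptor chains moved apart, with Ifngr1 higher and Ifngr2 lower. Jak2, Stat2 and Irf1 rose by smaller amounts. In all, 5 genes were called higher and 2 lower, and Irf8 and Socs1 did not pass the test. The share called over all 17097 genes in this comparison was 38% (17.9% higher and 20.1% lower), so many genes moved with this treatment. The median difference was 0.36 over the 9 genes and 0.00 over all genes.

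Ifngr1 encodes the chain of the receptor that binds interferon gamma. Its values were 5.76, 5.58, 6.03 and 5.89 in the 4 untreated cultures and 6.27, 6.32, 6.28 and 6.07 in the 4 treated ones. Every treated culture lay above every untreated one, though the gap between the closest was small. The difference was 0.42 (SE 0.10, limma adjusted p = 0.00613). Ifngr2 encodes the partner chain needed for signalling and went the other way. Its values were 6.36, 6.8, 6.76 and 6.85 untreated and 5.87, 6.31, 6.29 and 6.26 treated, again with no overlap. The difference was -0.51 (SE 0.13, adjusted p = 0.00845), and its dimmer probe set fell by 0.32 (adjusted p = 0.00721).

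Jak1 encodes the kinase that serves both interferon receptor types and many cytokine receptors. It stood at 6.73, 6.84, 6.51 and 6.78 in untreated cultures and at 8.01, 7.91, 7.95 and 7.89 in treated ones. The treated values lay close together and more than 1 log2 unit above all untreated ones. The difference was 1.23 (SE 0.08, adjusted p = 3.3e-07), and both dimmer probe sets agreed in direction, with 0.97 (adjusted p = 4.49e-06) and 1.40 (adjusted p = 3.76e-06). Jak2 encodes the kinase held by the IFNGR2 chain. Its values were 7.07, 7.01, 6.75 and 6.83 untreated and 7.27, 7.42, 7.13 and 7.28 treated, which did not overlap. It rose by 0.36 (SE 0.09, adjusted p = 0.00928), and by 0.61 (adjusted p = 0.00289) on the dimmer probe set.

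Irf9 encodes the DNA-binding partner of STAT2 in the type I complex. It lay close to background in untreated cultures, at 4.47 (just under it), 4.7, 4.66 and 4.61. It lay below background in every treated culture, at 3.44, 2.99, 3.5 and 3.47. The difference was -1.26 (SE 0.11, adjusted p = 4.09e-06). Since the treated values lie below background, the size of the fall is measured less surely than its direction. Stat2 was low in both groups. Its values were 4.03, 4.06, 4.0 and 4.12 untreated and 4.43, 4.41, 4.27 and 4.53 treated, a difference of 0.36 (SE 0.07, adjusted p = 0.00187) with no overlap. Its second probe set differed by 0.01 (SE 0.06, adjusted p = 0.928), so the 2 probe sets of Stat2 disagree, and both are dim.

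Irf1 encodes an interferon-induced activator. Its values were 6.37, 6.19, 6.46 and 6.47 untreated and 6.79, 6.63, 6.78 and 6.7 treated, with no overlap. It rose by 0.36 (SE 0.08, adjusted p = 0.00394). Irf8 stood at 4.06, 3.65, 4.05 and 4.05 untreated and at 3.85, 3.67, 3.9 and 3.72 treated, all below background. Its difference of -0.17 had a 95% confidence interval from -0.39 to 0.05 (adjusted p = 0.272). Socs1 stood at 3.82, 3.84, 3.8 and 3.89 untreated and at 3.99, 4.01, 3.96 and 4.15 treated, also below background. The treated cultures all lay higher, but the difference of 0.19 (SE 0.07) had an adjusted p of 0.0508. When all 6 groups were fitted together, which takes the spread of the tumours as that of the cultures, 3 of the 9 genes were called in cultures in place of 7. Ifngr1, Ifngr2, Jak2, Irf1 and Stat2 then lost their calls, with adjusted p between 0.0579 and 0.217, and Socs1 gained 1 (adjusted p = 0.0361), while Jak1 and Irf9 were called in both fits.

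**Figure D2:**
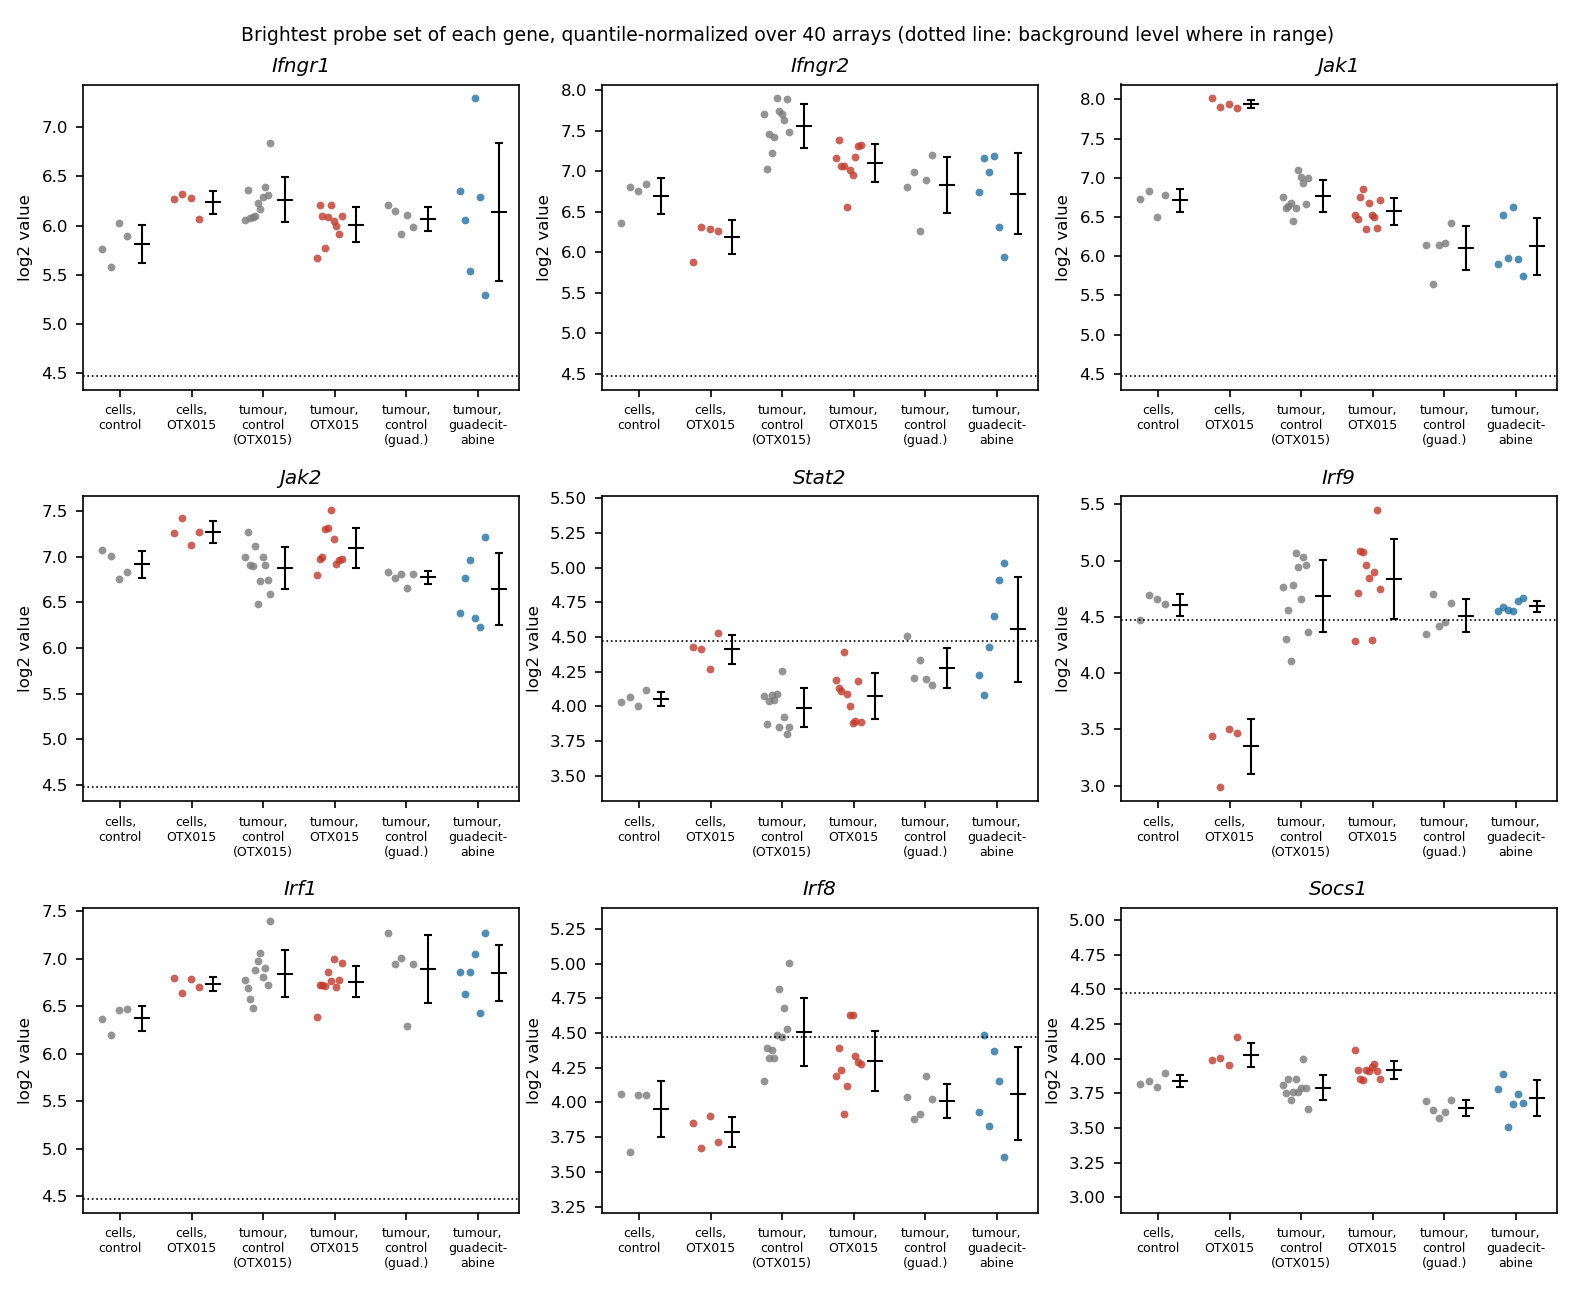
Value of the brightest probe set of each of the 9 genes in every array (y axis, log2, quantile-normalized over 40 arrays), by group; points are arrays, black marks and bars are the mean and SD, and the dotted line is the background level of 4.47. In OTX015-treated cells Jak1 stands above all other groups and Irf9 below them, while Stat2, Irf8 and Socs1 lie near or below background.

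Other genes of the pathway were read from lists of other receptors, kinases, STATs and IRFs, of other negative regulators, of interferons, and of interferon target genes. In cultures with OTX015 many genes of the target lists were lower. The interferon-induced genes Irf1 (0.36) and Usp18 (0.43, limma adjusted p = 0.00271), which are not in those lists, were higher. Of 12 measured type I interferon targets, 9 were lower and none higher, with a median of -1.50. The antiviral genes Ifit2 (-2.08, adjusted p = 1.15e-08), Rsad2 (-2.02, adjusted p = 1.3e-08) and Ifit3 (-1.54, adjusted p = 4.91e-08) and the RNA sensor Ifih1 (-1.56, adjusted p = 4.19e-08) had the smallest adjusted p. Of 12 measured interferon gamma targets, 6 were lower and none higher, with a median of -0.33. Among them were Cd274 (-1.39), the GTPase genes Gbp3 (-1.14) and Irgm1 (-0.90), and the chemokine gene Cxcl10 (-1.07). Gbp3 lay below background in both groups (2.96 treated and 4.10 untreated). So did 2 called type I targets, Mx1 (2.89 and 3.42) and Oasl2 (2.59 and 2.81). Oasl2 lost its limma call on the deposited values (adjusted p = 0.0565) and with median centring (adjusted p = 0.0591), which left 8 lower under each. Treated Ifih1 (3.13) and Ifit3 (4.23) lay below background too, so the size of their fall is less sure. By the mean over all arrays, 8 of the 12 type I targets and 6 of the 12 interferon gamma targets lay above background. No interferon gene was called among the 6 measured (median -0.05), and 1 of the 6 lay above background.

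Among 16 other receptors, kinases, STATs and IRFs, 2 were higher and 3 lower in treated cultures, with a median of -0.03. The type I receptor chains parted as the interferon gamma chains did. Ifnar1 rose by 0.51 (adjusted p = 0.000412) and Ifnar2 fell by 0.41 (adjusted p = 0.00067). Stat3, a factor of the interleukin 6 pathway, rose by 0.93 (adjusted p = 0.000314), and Il10rb, a chain shared by interleukin 10 and interferon lambda receptors, fell by 1.55 (adjusted p = 1.67e-07). Of 17 other negative regulators 7 were higher and 5 lower, with a median of 0.14. The risers with the smallest adjusted p were the adaptor Sh2b3 (1.13), the PIAS genes Pias3 (1.27) and Pias1 (0.80), and the phosphatase gene Ptpn1 (0.92).

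OTX015 in tumours moved few of the 9 genes, and by small amounts. Ifngr2 fell 1.38-fold and Ifngr1 fell 1.19-fold, and Socs1 was 1.09-fold higher on this scale. The other 6 genes did not pass the test. Over all genes 16.7% were called (8.88% higher and 7.83% lower), so 3 of 9 is not far from the background. Of the 83 receptor probe sets used for background 11 were called too, a limit on calls of dim probe sets such as that of Socs1. The median difference was -0.08 over the 9 genes and 0.01 over all genes. In each of the 9 genes the values of treated and control tumours overlapped. The share of all genes that overlap in this way was not counted, so this is not a trait of the 9 genes.

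These counts depend on how the arrays were scaled. On the deposited values the median of all genes shifted by -0.21 and that of the receptor probe sets used for background by -0.19, and 7 of the 9 genes were called lower and none higher. Over all genes the split was then 225 higher and 9442 lower, against 1518 and 1339 on the main scale, where 53.1% of the calls were higher. With median centring it was 2101 higher and 1200 lower, or 63.6% higher, with Ifngr2 and Socs1 called among the 9. The direction given for Socs1 holds for quantile normalization and median centring and turns on the deposited values, where it was -0.13 (adjusted p = 0.0115).

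Ifngr2 ranged from 7.02 to 7.9 in the 11 control tumours, with a median of 7.63, and from 6.56 to 7.38 in the 10 treated ones, with a median of 7.11. All 10 treated tumours lay below the control mean. The difference was -0.46 (SE 0.11, limma adjusted p = 0.00435), on the deposited values it was -0.70 (adjusted p = 0.000192), and with the low-spread arrays left out it was -0.48 (adjusted p = 0.0206). Its dimmer probe set gave 0.03 (95% interval -0.11 to 0.16, adjusted p = 0.835), so the fall of Ifngr2 in tumours was seen on 1 of its 2 probe sets, whereas in cultures both fell.

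Ifngr1 ranged from 6.05 to 6.84 in control tumours (median 6.23) and from 5.67 to 6.21 in treated ones (median 6.07). All 10 treated tumours lay below the control mean. The difference was -0.26 (SE 0.09, adjusted p = 0.0442). That call is a narrow one. It was lost when any of 13 of the 21 arrays was left out (difference between -0.28 and -0.20 over the 21, adjusted p up to 0.0847), with median centring (adjusted p = 0.105) and with the low-spread arrays left out (-0.17, adjusted p = 0.139). Socs1 ranged from 3.64 to 3.99 in control tumours (median 3.79) and from 3.85 to 4.06 in treated ones (median 3.92). All 10 treated tumours lay above the control mean, but every value was below background. The difference was 0.13 (SE 0.04, adjusted p = 0.0338), lost when any of 7 arrays was left out (adjusted p up to 0.0666). With control replicate 2, or treated replicate 1, 7 or 8, left out, 1 of the 9 genes was called.

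Jak1, the gene with the largest rise in cultures, ranged from 6.45 to 7.1 in control tumours (median 6.69) and from 6.34 to 6.86 in treated ones (median 6.52). Its difference was -0.20 (95% interval -0.37 to -0.03, adjusted p = 0.0982). The 2 brighter probe sets did not pass, and the third, below background, fell by 0.49 (adjusted p = 0.00673). Irf9 ranged from 4.11 to 5.07 in control tumours (median 4.77) and from 4.29 to 5.45 in treated ones (median 4.87), a difference of 0.15 (95% interval -0.14 to 0.44, adjusted p = 0.514). Neither gene was called in tumours on its brightest probe set. Jak2 differed by 0.22 (adjusted p = 0.116), Stat2 by 0.09 (adjusted p = 0.423), Irf1 by -0.08 (adjusted p = 0.59) and Irf8 by -0.20 (adjusted p = 0.163).

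Markers of macrophages moved with this comparison. In the cultures 1 of 14 macrophage markers, Csf1r, lay just above background, and the list mean was 3.59 to 3.69 untreated and 3.61 to 3.68 treated. In control tumours of the OTX015 experiment 12 of 14 lay above background, with a list mean from 5.90 to 7.80, and in treated tumours it ran from 4.60 to 6.42. Of the 14 markers 10 were lower in treated tumours and none higher, with a median of -1.06. Fewer macrophages and less RNA per macrophage cannot be told apart in whole-tumour RNA. Of 9 T and NK cell markers 1 lay above background in each group, and 2 were lower in treated tumours and none higher. Of 4 measured B cell markers none lay above background, and 1 was lower in treated tumours and none higher. The part of macrophage RNA in the differences of Ifngr1, Ifngr2 and the genes below was not tested.

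**Figure D3:**
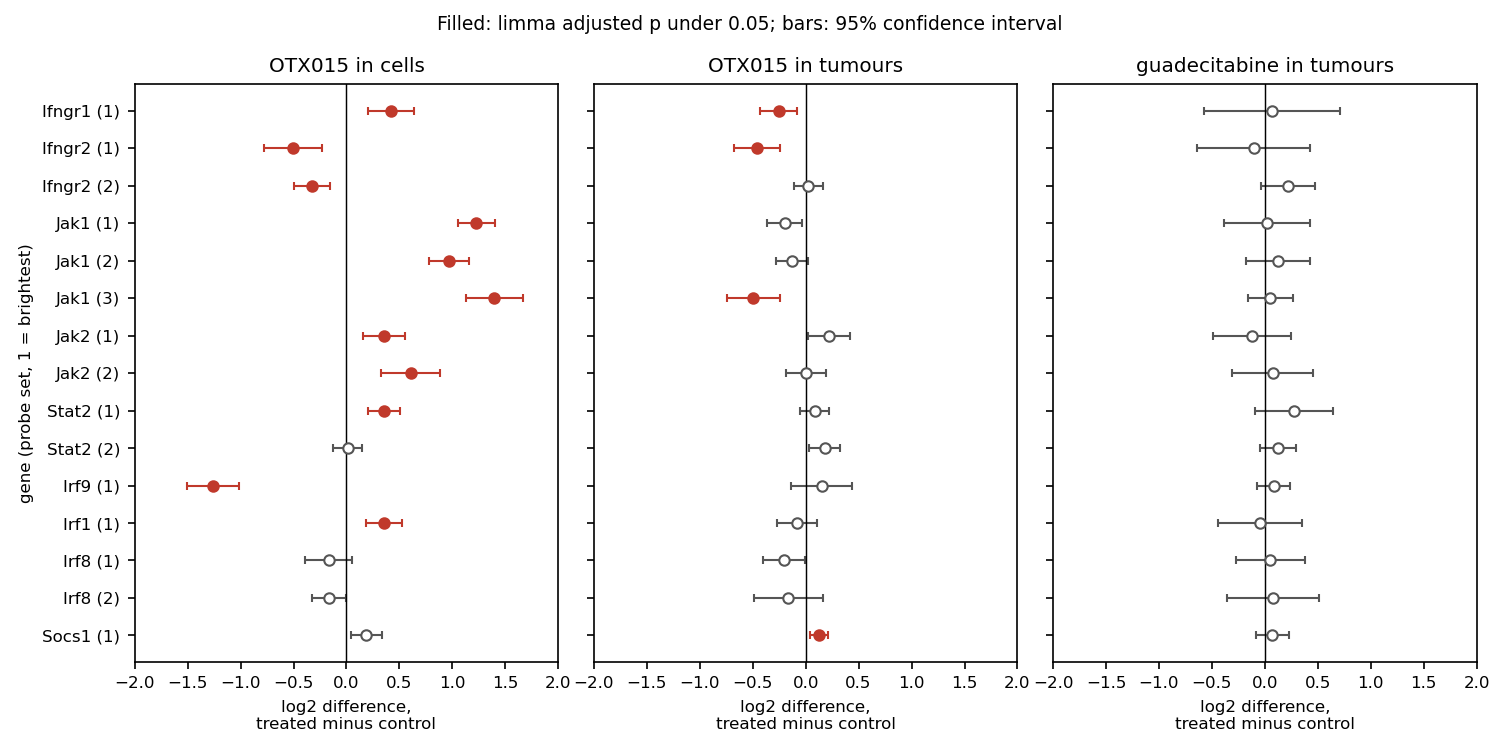
Difference, treated minus control (x axis, log2), of each of the 15 probe sets of the 9 genes in the 3 drug comparisons, with 95% confidence intervals; filled points passed the limma test. The test was passed by 11 of the 15 probe sets in cells (29.9% of all probe sets), by 4 in tumours (16.7% of all) and by 0 with guadecitabine (0% of all).

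Some genes of the target lists were lower in OTX015-treated tumours too. Of 12 interferon gamma targets 6 were lower and none higher (median -0.43), with Gbp2 (-0.89, adjusted p = 0.00024), the immunoproteasome gene Psmb9 (-0.58, adjusted p = 0.000465), the GTPase gene Igtp (-0.69, adjusted p = 0.000543) and Nlrc5 (-0.55, adjusted p = 0.000597), an activator of MHC class I genes, having the smallest adjusted p. Of 12 type I targets 5 were lower and none higher (median -0.32), among them Mx1 (-0.37), Xaf1 (-0.57), Ifit3 (-0.72) and Ifit1 (-0.69). Mx1 (2.69 treated and 3.06 control) and Nlrc5 (3.15 treated and 3.70 control) lay below background in both groups. Without the arrays of low spread, 5 interferon gamma targets and 3 type I targets were lower, and 7 of the 14 macrophage markers. Of 16 other receptors, kinases, STATs and IRFs 3 were lower and none higher: Tyk2, the kinase of the type I receptor (-0.56, adjusted p = 4.58e-06), Ifnar1 (-0.37) and Irf3 (-0.28). Tyk2 kept its call with median centring and with the low-spread arrays left out, while Ifnar1 (adjusted p = 0.0741 and 0.0772) and Irf3 (adjusted p = 0.106 and 0.0611) lost theirs, which left 1 of the 16 lower under each. Of 17 other negative regulators 2 were lower, Usp18 (-1.03, adjusted p = 0.000155), an interferon-induced brake on the type I receptor, and Ptpn6 (-0.25), a phosphatase of blood cells. Ptpn6 lost its call in both of those settings (adjusted p = 0.0858 and 0.0589), and Usp18 kept it. The deposited values, with their shift, gave 12 of these 16 receptors and factors, 11 of the 17 regulators, 10 interferon gamma targets and 11 type I targets lower. Of 6 interferon genes Ifng (0.17) and Ifnb1 (0.22) were called higher, but both lay below background and turned to -0.042 and -0.019 on the deposited values.

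**Figure D4:**
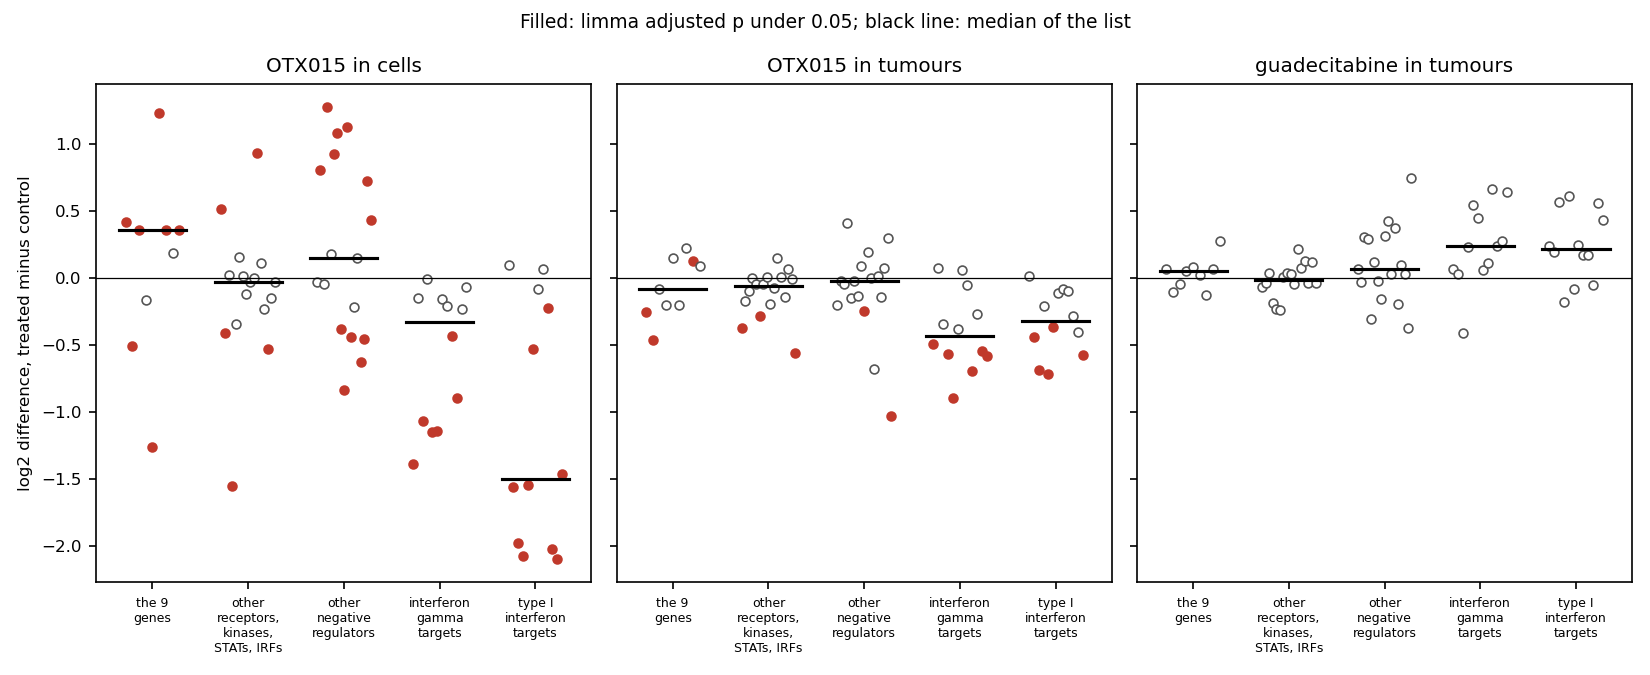
Difference, treated minus control (y axis, log2), of each gene of the 9 and of the other pathway lists in the 3 drug comparisons; points are genes, filled where the limma test was passed, and black lines are list medians. With OTX015 the type I targets have a median of -1.50 in cells and -0.32 in tumours, while the 9 genes scatter on both sides of 0.

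The difference between the OTX015 effects in tumours and in cells was tested as a contrast of the 4 OTX015 groups. Usp18 moved in opposite directions, rising by 0.43 in cultures (adjusted p = 0.00271) and falling in tumours, and its effects differed by -1.46 (limma adjusted p = 0.000212). Of the 12 type I targets 6 had a higher effect in tumours than in cells and none a lower one, with a median difference of 0.85 (6 or 7 higher under both other scalings and with the low-spread arrays left out). Of the 12 interferon gamma targets 3 were higher and 1 lower in this contrast (median 0.22), and 2 higher and 3 lower on the deposited values (median -0.025). Of the other receptors, kinases, STATs and IRFs 2 were higher and 4 lower, and of the other negative regulators 3 were higher and 6 lower. Among the 9 genes, the effect in tumours minus that in cells was -1.43 for Jak1 (SE 0.14, limma adjusted p = 5.91e-09), and -1.09 and -1.89 on its other probe sets. For Irf9 it was 1.41 (SE 0.24, adjusted p = 4.5e-05). The Ifngr1 effect, a rise in cells and a fall in tumours, differed by -0.67 (SE 0.16, adjusted p = 0.00146). For Irf1 it was -0.44 (adjusted p = 0.0368), which was lost with median centring (adjusted p = 0.151) and when any of 5 culture arrays was left out, namely untreated replicates 1 and 2 and treated replicates 1, 3 and 4 (adjusted p up to 0.0991).

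The effects of OTX015 on 4 of the 9 genes differed between tumours and cultures, against 31.6% of all genes. On the deposited values 23.8% of all genes called for this difference were higher, against 55.4% on the main scale. For Ifngr2 the brighter probe set gave 0.05 with a 95% interval from -0.36 to 0.45 (adjusted p = 0.898), and the dimmer one 0.35 (adjusted p = 0.0283). For Jak2 the brighter probe set gave -0.14 (adjusted p = 0.612) and the dimmer one -0.60 (adjusted p = 0.00965). Stat2 gave -0.27 (adjusted p = 0.0856), and passed the test with median centring, with the low-spread arrays left out, and on the deposited values (-0.55, adjusted p = 0.000307). Irf8 (-0.04, 95% interval -0.39 to 0.32) and Socs1 (-0.06, 95% interval -0.21 to 0.09) did not pass. The deposited values gave -0.32 for Socs1 (adjusted p = 0.00118), and 1 of the 9 genes higher and 5 lower in place of 1 and 3.

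Guadecitabine in tumours gave no call among the 9 genes or their 15 probe sets. No gene of the 17097 was called either (0%), with limma and an adjusted p of at least 0.0908. At an unadjusted p under 0.05, 956 genes were higher and 336 lower, and 0 of the 9 genes were among them. With all 6 groups in 1 fit 1459 of the 45037 probe sets were called, none of the 15 among them. The difference with the largest size was that of Stat2. It stood at 4.5, 4.2, 4.33, 4.19 and 4.15 in the 5 control tumours and from 4.08 to 5.03 in the 6 treated ones (median 4.54), with a wider spread after treatment. The difference of 0.28 had a 95% interval from -0.09 to 0.64 (adjusted p = 0.694).

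Ifngr1 spread most among treated tumours. It stood at 6.21, 6.15, 5.91, 6.1 and 5.98 in controls and ran from 5.29 to 7.29 after guadecitabine (median 6.17), on both sides of every control. The difference of 0.07 had a 95% interval from -0.57 to 0.71, so at this number of arrays a change of the size seen with OTX015 could not be told from none. Ifngr2 differed by -0.10 (95% interval -0.64 to 0.43) and Jak1 by 0.02 (95% interval -0.39 to 0.42). For Irf9 all 6 treated tumours lay above the control mean, yet the difference was 0.08 (95% interval -0.07 to 0.24, adjusted p = 0.78). Jak2 gave -0.12, Irf1 -0.04, Irf8 0.05 and Socs1 0.07. The other pathway lists had no called gene either, with medians of 0.24 for interferon gamma targets, 0.22 for type I targets, -0.02 for other receptors and factors and 0.06 for other negative regulators. The list mean of the macrophage markers ran from 5.61 to 6.20 in controls and from 4.48 to 6.16 in treated tumours (median difference -0.42, 0 of 14 called). With the 2 low-spread arrays of the treated group left out, that median was 0.029 and the median of the interferon gamma targets 0.12.

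The effect of OTX015 minus that of guadecitabine in tumours was called for 0 of the 9 genes, against 4.22% of all genes. The sizes ran from -0.35 for Ifngr2 (95% interval -0.84 to 0.13, adjusted p = 0.433) to 0.35 for Jak2 (95% interval -0.03 to 0.72, adjusted p = 0.3). On the deposited values, which carry the shift of the OTX015-treated tumours, 3 were called lower (Stat2 -0.42, Irf8 -0.47 and Socs1 -0.20).

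Untreated tumours of the OTX015 experiment were set against untreated cultures to see where the pathway stood without treatment. The labels do not say whether cultures and tumours were processed together. Sample type thus cannot be told apart from processing, here or in the next comparison. Ifngr2 was higher in the tumours by 0.87 (SE 0.14, limma adjusted p = 0.000214), Irf8 by 0.55 (SE 0.13, adjusted p = 0.00346), Irf1 by 0.47 (SE 0.12, adjusted p = 0.00808) and Ifngr1 by 0.45 (SE 0.12, adjusted p = 0.00832). For each of these 4 genes all 11 tumours lay above all 4 cultures on this scale. The share of all genes that part in this way was not counted. Over all genes 41.2% were called (21.4% higher and 19.8% lower). Of the 83 receptor probe sets used for background 24 were called too, a limit on calls of dim probe sets such as that of Irf8. Scaling matters here: on the deposited values Irf8 was higher by 0.60 (adjusted p = 0.00161) and Ifngr2 by 0.48 (adjusted p = 0.0426), but Ifngr1 gave 0.08 (adjusted p = 0.437) and Irf1 0.05 (adjusted p = 0.719), and Jak1, at 0.06 on the main scale, was lower (-0.36, adjusted p = 0.0268). With median centring Ifngr2 gave 0.38 (adjusted p = 0.142), Irf8 0.50 (adjusted p = 0.0022), and Ifngr1 and Irf1 turned to -0.018 and -0.042. The share of calls that were higher was 52%, 41.1% and 27.3% under these 3 scalings. Irf8, a factor of macrophages and dendritic cells, was thus the only 1 of the 4 called higher under all 3. All 14 macrophage markers were higher in these tumours than in cultures, with a median difference of 3.76. Of 4 measured dendritic cell markers 3 were higher, with a median difference of 0.52. The part of either cell type in Irf8 was not tested.

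In the control tumours of the guadecitabine experiment, set against the same 4 cultures, the picture was another. Irf1 was higher by 0.52 (adjusted p = 0.0334), Jak1 was lower, with -0.61 (adjusted p = 0.00689), and Socs1 gave -0.19 (adjusted p = 0.0199). Over all genes 37.2% were called, 12.9% higher and 24.3% lower. The share of calls that were higher was 34.7% on this scale, 26% on the deposited values and 14.4% with median centring. Jak1 was called under all 3 scalings (-0.88 deposited and -0.99 centred). Irf1 lost its call under both others (0.22, adjusted p = 0.302, and 0.12, adjusted p = 0.543). Socs1 lost it on the deposited values (-0.11, adjusted p = 0.194) and not with centring (-0.21, adjusted p = 0.0166). Jak2 (-0.14, adjusted p = 0.188) and Stat2 (0.22, adjusted p = 0.0513) were not called on the main scale but were under both others, Jak2 with -0.43 (adjusted p = 0.00287) and -0.54 (adjusted p = 0.000886), and Stat2 with 0.35 (adjusted p = 0.0112) and 0.25 (adjusted p = 0.0432). The dimmer probe set of Jak2 was lower by a difference of -0.91 (adjusted p = 0.000293). Without untreated culture replicate 4, 1 of the 9 genes was called. Irf8 differed by 0.06 (adjusted p = 0.703), and 13 of 14 macrophage markers were higher with a median difference of 2.17. Of 4 measured dendritic cell markers 1 was higher, with a median difference of 0.03. The 2 sets of control tumours were handled in separate experiments and were not tested against each other.

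Over the 6 groups the order of levels on the main scale differed from gene to gene. Of 54 group levels, 19 moved by over 1 SD on the deposited values. Ifngr2 was highest in control tumours of the OTX015 experiment (7.56 ± 0.27, SD, n = 11), then in OTX015-treated tumours (7.10 ± 0.24, n = 10), in control (6.83 ± 0.35, n = 5) and treated tumours of the guadecitabine experiment (6.72 ± 0.50, n = 6), in untreated cultures (6.69 ± 0.22, n = 4) and lowest in treated cultures (6.19 ± 0.21, n = 4). From OTX015-treated tumours down to untreated cultures each gap was smaller than the larger SD of its neighbours, and the values of treated and untreated cultures did not overlap. Ifngr1 had a flatter order, from 6.26 ± 0.23 in control tumours of the OTX015 experiment down to 5.81 ± 0.19 in untreated cultures, and each group overlapped the next. On the deposited values untreated cultures lay above OTX015-treated tumours for both genes (Ifngr2 7.06 and 6.83, Ifngr1 6.13 and 5.75).

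Jak1 stood at 7.94 ± 0.05 in OTX015-treated cultures, apart from all others. Control tumours of the OTX015 experiment (6.77 ± 0.21), untreated cultures (6.71 ± 0.14) and OTX015-treated tumours (6.57 ± 0.17) followed, with gaps smaller than their SD, and both groups of the guadecitabine experiment came last (6.13 ± 0.36 treated and 6.11 ± 0.28 control). Jak2 ran from 7.27 ± 0.12 in treated cultures to 6.65 ± 0.40 in guadecitabine-treated tumours, with every step smaller than the larger SD of its neighbours. Irf9 lay in 5 groups between 4.51 ± 0.15 and 4.84 ± 0.36, and lower in OTX015-treated cultures (3.35 ± 0.24).

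Irf1 lay in 5 groups between 6.73 ± 0.07 and 6.89 ± 0.36, and lower in untreated cultures (6.37 ± 0.13). On the deposited values untreated cultures (6.73) lay above OTX015-treated tumours (6.49), and treated cultures were highest (7.05). Irf8 ran from 4.51 ± 0.24 in control tumours of the OTX015 experiment to 3.78 ± 0.11 in treated cultures, where only the first lay above background, and each group overlapped the next. Stat2 was highest in guadecitabine-treated tumours (4.55 ± 0.38), the only group above background, and lowest in control tumours of the OTX015 experiment (3.99 ± 0.14). Socs1 ran from 4.03 ± 0.09 in treated cultures to 3.64 ± 0.06 in control tumours of the guadecitabine experiment, below background throughout.

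For each gene the genes with the most similar variation between arrays of 1 group were found, as Pearson's r of the deviations from the 6 group means over the 40 arrays, among the genes above background. These arrays share tumour makeup, array quality and scaling, so r is a description. Irf9 went with Ifi35 (0.661), an interferon-induced gene, Renbp (0.630) and Gsta2 (0.623). Irf1 went with Tnfrsf9 (0.635), Prr12 (0.633) and Cd274 (0.607), an interferon gamma target. Irf8 went with Igf1 (0.756), Ugt1a6a (0.745) and Evi2a (0.717). Jak2 went with Fmnl2 (0.790), Sox10 (0.785), a melanocyte factor, and Mlph (0.721), a gene of pigment granule transport.

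Ifngr1 went with Mcfd2 (0.854), Gla (0.827) and Prdx4 (0.791), and Ifngr2 with Uqcc1 (0.821), Camk1 (0.814) and Bnip2 (0.811). The others had Aqr (0.683), Cd93 (0.673) and Galns (0.664) for Jak1, Rusc2 (0.719), Brpf1 (0.691) and Fbrsl1 (0.688) for Stat2, and Gstcd (0.648), Dnajc11 (0.642) and Plk1 (0.630) for Socs1. With Spearman's rho in place of r, 2 of 3 were shared for Jak2 and Irf9, 1 of 3 for Stat2, Irf1, Irf8 and Socs1, and 0 of 3 for Ifngr1, Ifngr2 and Jak1.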

How the data were processed

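RNA of 40 samples (500 ng of total RNA for each array, per the labels' protocols) was measured on Affymetrix 3′ expression arrays. The deposited values of 45141 probe sets are log2 values. According to the submitters' processing notes the authors used the Transcriptome Analysis Console and RMA, whose versions are not given in the sources used here. Nor do these sources say which arrays were summarized in one run. Arrays have no read depth, so their number limits the precision.

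All 40 columns were used. After 104 control probe sets were left out, the values were quantile-normalized over the 40 arrays. Gene names came from the platform annotation in GEO and were brought up to date by Entrez gene number with RefSeq's GRCm38.p6 gene table. Of these, 28898 named 1 gene and 551 named several. Each comparison was fitted on its own groups with limma 3.58.1 in R 4.3.3 (lmFit, eBayes), two-sided, with Benjamini-Hochberg adjustment over 45037 probe sets. The fit was tested on simulated data. The SE and the 95% confidence interval come from the same fit.

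The 9 genes, the gene lists and the tests were chosen with earlier results of these data known, so the lists are not independent evidence. Named were every probe set of the 9 genes, 3 alike genes for each by the rule in the text, up to 4 called genes of each list with the smallest adjusted p, and Hexim1 and Myc. Usp18 in cells and the order of Irf8 under the scalings were singled out after their values were seen. Mx1 and Oasl2 in cells were named for their low values. Other marker lists (dendritic, endothelial, fibroblast, keratinocyte and erythroid cells) are given in the closing part. Replicate numbers do not pair the samples: in cells r between same-numbered samples' deviations ran from -0.078 to 0.229, in OTX015 tumours from -0.514 to 0.455 and in guadecitabine tumours from -0.604 to 0.002. Within groups r between arrays lay between 0.939 and 0.997, with 0 identical pairs.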

Additional observations from a re-analysis of the deposited data

Results flagged for a closer look

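The effect of OTX015 differed between tumours and cells by a test of the difference itself (limma, log2, tumours minus cells) for Ifngr1 (-0.67), Ifngr2 on its dimmer probe set (0.35), all 3 probe sets of Jak1 (-1.43, -1.09 and -1.89), Jak2 on its dimmer probe set (-0.60), Irf9 (1.41) and Irf1 (-0.44).

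In some groups 1 sample stood far from the others. Among OTX015-treated cultures replicate 1 was the lowest for Ifngr2 on its brighter probe set (5.87, the others 6.26 to 6.31) and for Jak2 on its dimmer one (5.07, the others 5.47 to 5.5), and the highest for Jak1 on its second probe set (6.85, the others 6.65 to 6.67). Replicate 2 of the same group was the lowest for Irf9 (2.99, the others 3.44 to 3.5). Among untreated cultures replicate 2 was the lowest for Irf8 (3.65, the others 4.05 to 4.06), and without it Irf8 passed the test in cultures (-0.27, adjusted p = 0.0218).

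Among OTX015-treated tumours replicate 5 was the lowest for Ifngr2 on its brighter probe set (6.56, the others 6.96 to 7.38), and replicate 1 was the lowest for Irf1 (6.39, the others 6.7 to 6.99) and the highest for Socs1 (4.06, the others 3.85 to 3.96). Among control tumours of the guadecitabine experiment replicate 5 was the highest for Ifngr2 on its dimmer probe set (5.6, the others 5.28 to 5.36). These are 9 of 75 pairs of a probe set and a group that were looked at, and chance gives about 1 in 20. The 11 control tumours of the OTX015 experiment were not looked at in this way.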

How the results depend on the processing

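Of 2306 values of the 9 genes' probe sets under other settings, 2104 kept their direction and their side of the threshold. With the direction kept, 59 lost a call and 43 gained one. A further 100 changed sign, of which 92 were not called under the other setting. Some of these 92 had been called on the main scale, such as Ifngr1 and Irf1 in control tumours minus cells with median centring. Most of the 2306 values came from fits that left out 1 array, so the total says little about scaling. For OTX015 in tumours on the deposited values, only Ifngr1, the brighter Ifngr2 probe set and the dimmest Jak1 probe set kept both direction and side. Of 54 group levels, 35 lay within 1 SD of the deposited level and 19 moved further. The causes of these changes were not tested beyond what each setting does to the values.

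The number of the 9 genes called with OTX015 in cells was 7, and 3 with all 6 groups in 1 fit. With OTX015 in tumours it was 3, and it became 7 on the deposited values, 5 with the mean of a gene's probe sets, 1 without dim probe sets (which drops Socs1) and 1 with a variance trend and robust estimation, and ranged from 1 to 4 with an array left out. For the OTX015 effect minus the guadecitabine effect it was 0, and 3 on the deposited values. For control tumours of the guadecitabine experiment minus cells it was 3, and 1 to 4 with an array left out. Over all probe sets, OTX015 in tumours gave 7507 calls, 26784 on the deposited values and 1582 without dim probe sets. The test of tumours minus cells gave 11689, 18626 and 7484 in that order, and OTX015 minus guadecitabine 2088, 13676 and 277, with 3555 under array weights. Without dim probe sets control tumours minus cells fell from 16312 to 9615, and those of the guadecitabine experiment from 16971 to 9669. Guadecitabine gave 0, and 1459 with all 6 groups in 1 fit.

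Values that changed sign are given next, in log2. On the deposited values OTX015 in tumours gave Ifngr2 (dimmer probe set) -0.20, Jak2 -0.0070 and -0.27, Stat2 -0.18 and -0.075, Irf9 -0.13, Socs1 -0.13, Ifng -0.042 and Ifnb1 -0.019. Guadecitabine gave Jak1 -0.0185. Tumours minus cells gave Ifngr2 -0.12, Stat2 (dimmer) -0.0855 and Irf8 (dimmer) -0.22, and OTX015 minus guadecitabine gave Irf9 -0.17 and Socs1 -0.20. Control tumours minus cells gave Jak1 -0.36, Stat2 0.0175 and Socs1 0.052, and those of the guadecitabine experiment Ifngr2 -0.15. With median centring OTX015 in tumours gave Jak2 (dimmer) -0.0205, guadecitabine Jak1 -0.014, and OTX015 minus guadecitabine Irf1 0.039. Control tumours minus cells then gave Ifngr1 -0.018, Jak1 -0.45, Irf9 -0.063 and Irf1 -0.042, and those of the guadecitabine experiment Ifngr1 -0.081 and Ifngr2 -0.26. With array weights OTX015 in tumours gave Jak2 (dimmer) -0.067, guadecitabine Jak1 -0.0060, Jak2 (dimmer) -0.032 and Irf1 0.013, and tumours minus cells Ifngr2 -0.025 and Irf8 0.09. With the mean of a gene's probe sets guadecitabine gave Ifngr2 0.057 and control tumours minus cells Jak1 -0.25. Without the arrays of low spread, a setting chosen after seeing the data, OTX015 in tumours gave Jak2 (dimmer) -0.058 and Irf8 (dimmer) 0.11, guadecitabine Ifngr2 0.024 and Jak2 (dimmer) -0.0022, tumours minus cells Irf8 0.11, and OTX015 minus guadecitabine Irf1 0.12.

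The replicate number as a block, which the labels do not tie to a shared animal or day, gave 7, 2 and 0 of the 9 genes for OTX015 in cells, OTX015 in tumours and guadecitabine, and 13343, 6430 and 0 probe sets. Under this block Socs1 in OTX015 tumours was 0.11 (adjusted p = 0.103), Jak2 (dimmer) turned to -0.035, and Ifngr2 with guadecitabine to 0.0515. Of the control samples 1 of 4, 1 of 10 and 0 of 5 were most like the treated sample of their own number.

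With 1 array left out the following ran across 0. Stat2 (dimmer) in cells ran from -0.011 to 0.039 and Jak2 (dimmer) in OTX015 tumours from -0.035 to 0.0425. With guadecitabine Irf1 ran from -0.19 to 0.050, Jak1 from -0.096 to 0.099, Irf8 from -0.032 to 0.14 and from -0.024 to 0.17 (dimmer), Jak2 (dimmer) from -0.0295 to 0.15, Ifngr1 from -0.16 to 0.24 and Ifngr2 from -0.25 to 0.0515. For tumours minus cells Irf8 ran from -0.074 to 0.066 and from -0.081 to 0.081 (dimmer), and Ifngr2 from -0.057 to 0.16. For OTX015 minus guadecitabine Irf1 ran from -0.13 to 0.11 and Irf9 from -0.0015 to 0.13. For control tumours minus cells Jak2 ran from -0.094 to 0.012 and Jak1 from -0.0115 to 0.098, and for those of the guadecitabine experiment Irf8 from -0.045 to 0.093. Probe sets at or below background (Stat2, Irf8, Socs1, and Irf9 after OTX015 in cells) limit what these arrays can show.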

Other observations

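The remaining marker lists gave few calls in the drug comparisons. With OTX015 in tumours 1 of 4 measured dendritic cell markers, 1 of 6 fibroblast markers and 1 of 5 keratinocyte markers were higher, 1 keratinocyte marker was lower, and 0 of 5 endothelial and 0 of 2 erythroid markers were called. With guadecitabine 0 markers of any list were called by limma. The list mean of the 2 erythroid markers ran from 8.59 to 10.4 in control tumours of the guadecitabine experiment and from 6.16 to 9.65 after treatment. Control tumours of the OTX015 experiment minus cells gave more calls, where 41.2% of all genes were called. Higher there were 3 of 4 dendritic, 2 of 5 endothelial, 1 of 5 keratinocyte and 2 of 2 erythroid markers (erythroid median 5.48). Of 6 fibroblast markers 2 were higher and 3 lower.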
